A study of Mus musculus with 11 samples.

Results

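Brown and beige adipocytes are fat cells that burn fuel to make heat, and 8 genes known for that work are described here in white fat: Ucp1, Cidea, Ppargc1a, Prdm16, Dio2, Cox7a1, Cox8b and Elovl3. Every probe set annotated to one of these genes was taken whatever its brightness, which gave 17 of the 45037 probe sets that were no controls, and 8 of the 18193 genes with a symbol of their own. The tissue was epididymal fat, a visceral depot, of male C57BL/6 mice aged 3 months that were kept at 22 °C with 12 hours of light and standard chow. Each of 11 one-colour Affymetrix arrays held total RNA of 1 labelled biological replicate. Wild-type mice (B1+/+) gave 4 arrays, and mice without the kinin B1 receptor (B1-/-, called knockout below), which binds kinin peptides at the cell surface, gave 4 as well. The other 3 came from aP2B1-B1-/- mice (called fat rescue below), which carry the same deletion as the knockout and have the receptor restored in fat. The aP2 promoter comes from Fabp4. It is used to drive transgenes in adipocytes and is known to be active in macrophages too. Since both mutant groups lack the endogenous receptor and share the wild-type controls, their comparisons with wild type are not independent.

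In a brown or beige adipocyte, noradrenaline acts on beta-adrenergic receptors and cyclic AMP, which releases fatty acids and switches on heat-producing genes through the coactivator encoded by Ppargc1a. Prdm16 encodes a zinc finger regulator that holds the brown and beige programme, and Dio2 a deiodinase that makes active thyroid hormone inside the cell. Ucp1 encodes the uncoupling protein that lets protons back across the inner mitochondrial membrane as heat, Cox7a1 and Cox8b subunit isoforms of cytochrome c oxidase typical of heart, muscle and brown fat, Cidea a lipid droplet protein, and Elovl3 an elongase of very long-chain fatty acids. Epididymal fat of mice is known as a depot with few beige cells.

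Cox8b was the 1 gene of the 8 that passed a test between genotypes, and the RefSeq promoters of both cytochrome c oxidase members and of Ucp1 are shown as the sequence context of these genes. Each is the 250 bases before the annotated start in the build GRCm38.p6, 5′ to 3′ in the direction of the gene, with motif matches in capitals; 6 of the 8 genes had an entry. Cox8b lies at chr7:140900447-140900696 on the minus strand, Cox7a1 at chr7:30183921-30184170 on the plus strand and Ucp1 at chr8:83290098-83290347 on the plus strand.
Cox8b: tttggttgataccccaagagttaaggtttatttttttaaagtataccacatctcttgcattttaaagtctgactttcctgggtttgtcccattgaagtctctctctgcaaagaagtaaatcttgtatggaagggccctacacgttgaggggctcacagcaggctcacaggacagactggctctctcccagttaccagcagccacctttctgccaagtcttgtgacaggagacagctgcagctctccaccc
Cox7a1: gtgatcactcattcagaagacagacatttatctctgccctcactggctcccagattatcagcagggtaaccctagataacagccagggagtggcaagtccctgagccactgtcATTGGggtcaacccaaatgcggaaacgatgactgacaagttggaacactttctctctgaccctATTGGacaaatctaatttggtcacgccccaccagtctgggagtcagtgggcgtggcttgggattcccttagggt
Ucp1: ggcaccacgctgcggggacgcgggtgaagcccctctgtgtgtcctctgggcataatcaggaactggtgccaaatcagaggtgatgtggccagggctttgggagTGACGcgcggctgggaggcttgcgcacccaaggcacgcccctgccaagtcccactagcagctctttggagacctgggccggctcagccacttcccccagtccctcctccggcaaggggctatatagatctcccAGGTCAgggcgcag
Motifs were searched on both strands. They were the nuclear receptor half-site AGGTCA, the Sp1 box with the letters GGGCGG, the box known as CCAAT, the TATA box spelled TATAAA, the E-box with the letters CACGTG, and the half-site of the cyclic AMP response element, which reads TGACG. The Cox8b window held none of these letters, while the Cox7a1 window held the CCAAT box in reverse at 137 and at 74 bases before the start. The Ucp1 window held the response element half-site at 147 and the nuclear receptor half-site at 14 bases before the start. Among 32851 promoter windows of the length 250, the CCAAT box was present in 33.9%, the response element half-site in 17.8%, the nuclear receptor half-site in 14.0%, the Sp1 box in 32.7%, the TATA box in 12.4% and the E-box in 6.02%. No searched motifs overlapped in these windows. Such matches describe letters in these windows and are not known binding sites.

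Signals are the authors' scaled linear intensities, and a log2 difference is the difference between the groups' mean log2 signals with its standard error from limma, which need not equal the log2 ratio of the printed mean signals. A probe set counted as above background on an array when its signal exceeded the 95th percentile of 81 probe sets of olfactory, vomeronasal and trace amine receptor genes on that array, which lay between 29.2 and 43.6. It counted as above background in a genotype when this held on all arrays of that genotype. The share of probe sets above this limit was 51.2% to 58.7% over the arrays. Bdkrb1, the deleted gene, had signals of 3.7 to 32.2 (wild type), 4.8 to 29.7 (knockout) and 57.8 to 73.4 (fat rescue), so its probe set separated the fat rescue arrays and did not separate knockout from wild type. Array medians were 41.3 to 45.1 in wild type, 46.5 to 48.8 in knockout and 45.6 to 46.6 in fat rescue. Beta-actin read by its 3′ probe set over its 5′ probe set, a sign of RNA quality, gave ratios of 1.65 to 1.83, 1.53 to 1.69 and 1.47 to 1.56 in the same order. On the first principal component of probe sets with a mean above background, which held 20.6% of the variance, wild-type array 1 stood apart at -60.2 (the next lowest was -21.6). From array 1 to array 4 the scores rose in wild type (-60.2, -21.6, 0.48 and 14.7) and in knockout (7.08, 11.8, 12.5 and 27.8). In fat rescue they were -19.9, 17.6 and 9.75.

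Of the 17 probe sets, 10 from 5 genes were above background in at least 1 genotype: all 5 of Ppargc1a, 2 of the 4 of Prdm16, and the single probe sets of Cidea, Cox7a1 and Cox8b. Among these, Ppargc1a 1434099_at and 1460336_at and Prdm16 1429308_at were above background in knockout only. They exceeded the limit on 2 of 4, 3 of 4 and 3 of 4 wild-type arrays, and each on 2 of 3 fat rescue arrays. Cidea was above background in wild type and knockout, and exceeded the limit on 2 of 3 fat rescue arrays. On all 11 arrays 6 probe sets of 4 genes were above it, namely 3 of Ppargc1a, 1 of Prdm16, Cox7a1 and Cox8b. Ucp1, Dio2 and Elovl3 were above background in no genotype. With the 99th percentile as the limit 8 probe sets of 5 genes were above it, and with the 75th percentile 13 probe sets of 6 genes. With a fixed limit of 23.7, the lower bound of the upper 60% of probe sets by mean, 11 probe sets of 6 genes were above it. The gene added there was Dio2, through 1418938_at in knockout (28.7 to 36.1), so that its standing in knockout depended on the limit.

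**Figure D1:**
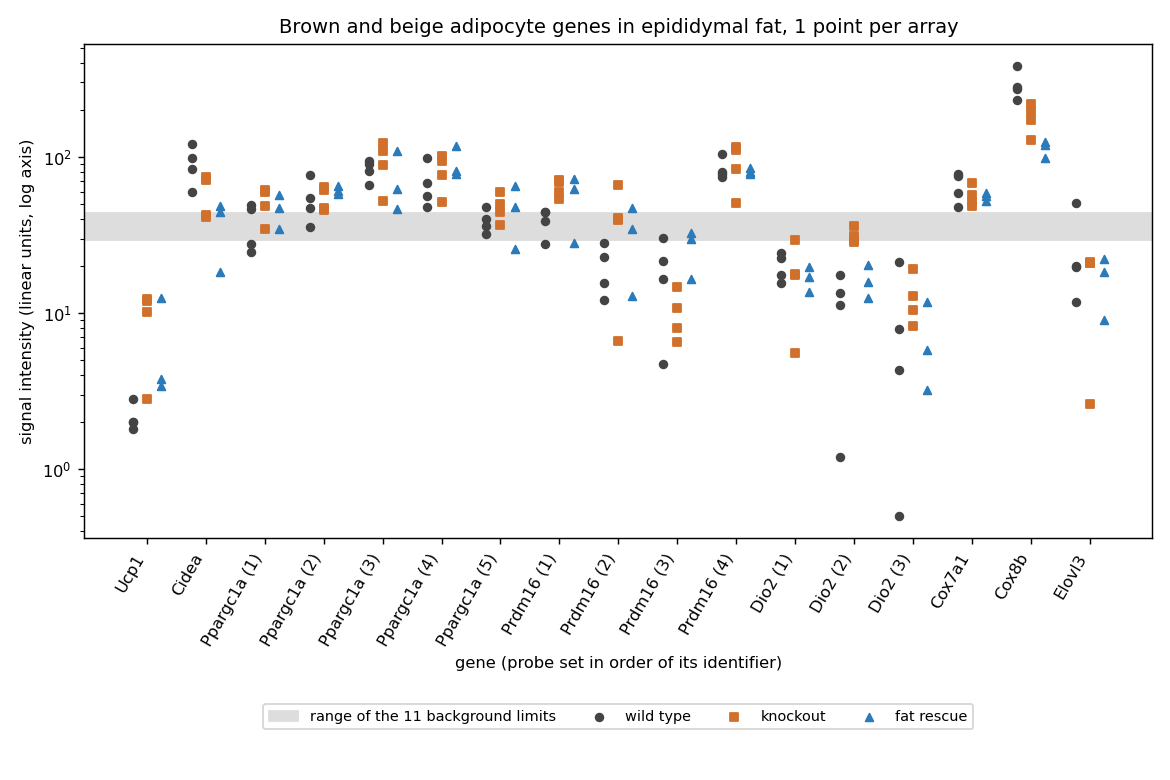
Signal intensity (linear units on a log axis) of the 17 probe sets, 1 point per array, by genotype (circles wild type, squares knockout, triangles fat rescue); the grey band spans the 11 background limits, 29.2 to 43.6. Cox8b lies above the band on every array and falls from wild type to knockout to fat rescue without overlap, while Ucp1 lies below the band throughout.

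Cox8b encodes the muscle and brown fat isoform of subunit 8 of cytochrome c oxidase, the last enzyme of the respiratory chain. Its probe set (1449218_at) read 379.9, 278.9, 271.2 and 231.3 on wild-type arrays 1 to 4. It read 172.8, 195.7, 217.3 and 128.4 on the knockout arrays, and 125.0, 119.8 and 98.5 on the fat rescue arrays. Every wild-type array was above every knockout array, and every knockout array was above every fat rescue array. Group means were 290 ± 63.3 (SD, n = 4), 179 ± 38.1 (n = 4) and 114 ± 14.0 (n = 3). Cox8b fell by 1.33 ± 0.20 in fat rescue against wild type, to a geometric mean 60.1% lower (limma, adjusted p = 0.0458), the rank 7 of all probe sets by p. Among the 17 probe sets it was the only one called in this comparison, where 7 of 45037 probe sets were called (0.0155%). Against wild type, knockout was lower by a log2 difference of -0.70 ± 0.18, which did not pass (limma, unadjusted p = 0.00152, adjusted p = 0.504). Fat rescue against knockout gave -0.62 ± 0.20 (limma, unadjusted p = 0.00634, adjusted p = 0.99997). With both mutant groups together, Cox8b fell by 1.02 ± 0.16 (limma, adjusted p = 0.0402), and it was 1 of 18 called probe sets of 45037 (0.0400%). The moderated F test over the 3 genotypes did not pass for Cox8b (limma, adjusted p = 0.106). The two-sided exact permutation p was 0.0286 for each mutant group against wild type, the smallest that these group sizes allow, and 0.0571 for fat rescue against knockout.

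The Cox8b call in fat rescue was close to the threshold and depended on the arrays used. Leaving out each array in turn, it was lost without any single wild-type or fat rescue array and without knockout array 1, 2 or 3, with adjusted p up to 0.291, and it was kept without knockout array 4 (limma, adjusted p = 0.0291). The call for both mutant groups together was kept without knockout array 3 (limma, adjusted p = 0.0341) and lost without any other single array (up to 0.154). The fat rescue difference itself stayed between -1.43 and -1.19 in these fits. Without wild-type array 1, which had the highest Cox8b signal, it was -1.19 (limma, adjusted p = 0.0739), and without both wild-type array 1 and fat rescue array 1 it was -1.26 (limma, adjusted p = 0.211). Steps of this kind, falling without overlap from wild type to knockout to fat rescue, were shown by 5 of 45037 probe sets (0.0111%), of which Mxd4, Cnih1 and Zfp277 were the other named genes.

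Cox7a1, the muscle and brown fat isoform of subunit 7a of the same enzyme, showed no such pattern. Its probe set read 75.1, 59.1, 77.2 and 47.6 on the wild-type arrays, 51.7, 57.0, 48.5 and 67.6 on the knockout arrays, and 52.5, 58.7 and 56.3 on the fat rescue arrays. The wild-type arrays spanned the range of both mutant groups. The log2 difference was -0.19 ± 0.23 for knockout and -0.19 ± 0.25 for fat rescue against wild type, and 0.00 ± 0.25 between the mutant groups (limma, adjusted p from 0.899 to 0.99997). The difference between the changes of Cox8b and Cox7a1 was not tested.

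**Figure D2:**
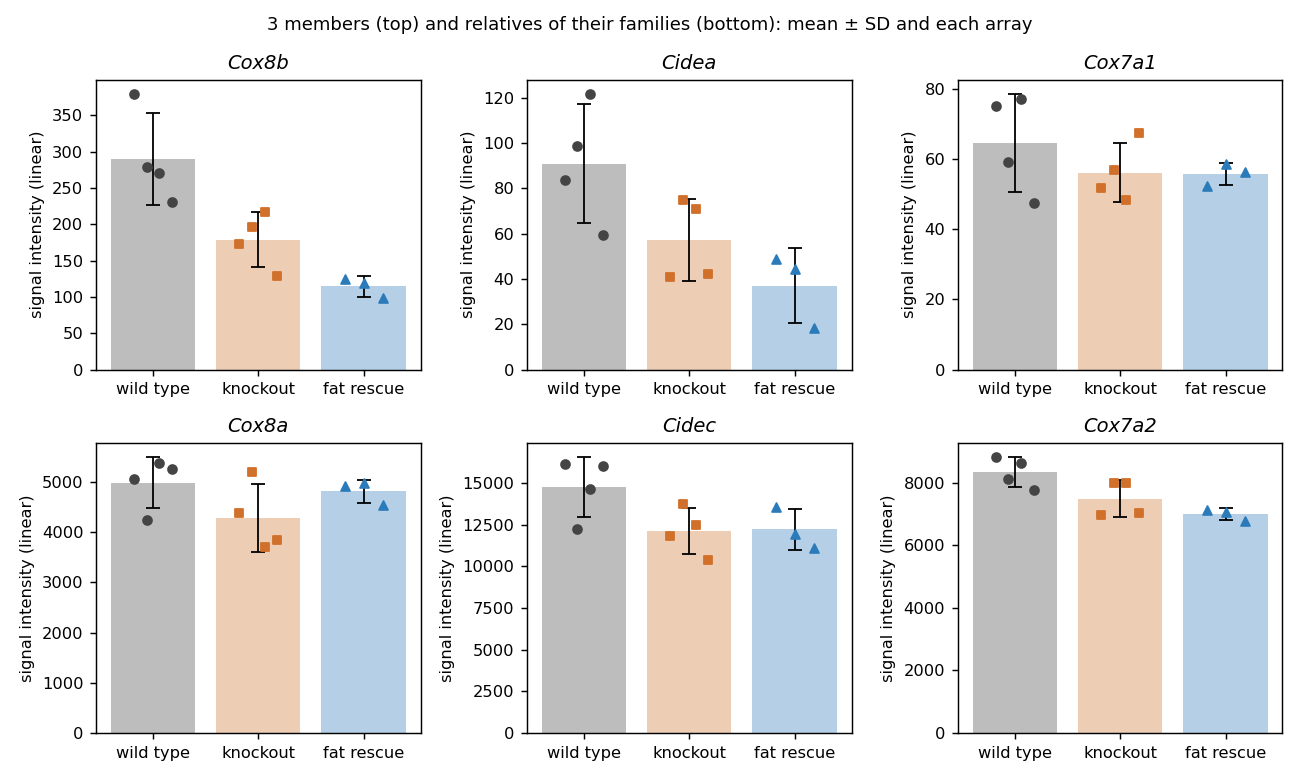
Signal intensity (linear, axes from 0) of Cox8b, Cidea and Cox7a1 (top) and of their relatives Cox8a, Cidec and Cox7a2 (bottom), with bars for group means, error bars for SD and a point per array in wild type (n = 4), knockout (n = 4) and fat rescue (n = 3). Cox8b steps down from 290 to 179 to 114, whereas the ubiquitous isoform Cox8a has means of 4988, 4286 and 4814.

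Other nuclear-encoded subunits of cytochrome c oxidase did not pass in any comparison: 13 of 14 on the array had a mean above background, of which 9 were lower and 4 higher in knockout, and likewise in fat rescue, against wild type. Over all probe sets with a mean above background 42.7% were lower in knockout and 41.8% in fat rescue. Their median log2 differences were -0.12 and -0.06, beside 0.03 and 0.04 over all probe sets with a mean above background. Cox8a, the isoform found in most tissues, read 4988 ± 514 in wild type, 4286 ± 681 in knockout and 4814 ± 228 in fat rescue (log2 differences -0.23 ± 0.12 and -0.05 ± 0.13 against wild type). Cox7a2, the common counterpart of Cox7a1, had means of 8329, 7491 and 6985, and its fat rescue arrays lay below all wild-type arrays without passing (-0.25 ± 0.10, limma, adjusted p = 0.732). Cox6b1, another subunit, differed by -0.19 ± 0.10 in fat rescue, and the testis isoform Cox8c by -0.08 ± 0.24.

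Cidea, whose protein enlarges lipid droplets and is abundant in brown fat, was lower in both mutant groups without passing. It read 83.7, 98.6, 121.8 and 59.4 on the wild-type arrays, 41.0, 74.8, 71.0 and 42.3 on the knockout arrays, and 48.6, 44.2 and 18.2 on the fat rescue arrays. All fat rescue arrays lay below all wild-type arrays, the knockout arrays overlapped both groups, and fat rescue array 3 was below its background limit of 43.6. Means were 90.9 ± 26.2, 57.3 ± 18.1 and 37.0 ± 16.4. The log2 difference from wild type was -0.67 ± 0.35 in knockout (limma, adjusted p = 0.771) and -1.37 ± 0.38 in fat rescue (limma, unadjusted p = 0.00245, adjusted p = 0.543). Its relative Cidec, a lipid droplet gene of white adipocytes, differed by -0.28 ± 0.12 and -0.27 ± 0.13, and Cideb by 0.46 ± 0.37 and -0.32 ± 0.40, none of them passing.

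Among the regulators, Ppargc1a had 5 probe sets, and none passed in any comparison. The probe set 1437751_at read 65.6, 89.5, 81.5 and 93.5 on the wild-type arrays, 52.5, 88.5, 122.6 and 108.7 on the knockout arrays, and 109.7, 61.9 and 46.4 on the fat rescue arrays. The probe set 1456395_at read 48.0, 56.4, 68.0 and 98.4, then 51.7, 102.0, 94.4 and 76.8, then 117.6, 80.8 and 78.2. In both probe sets the genotypes overlapped. Over the 5 probe sets the log2 difference of knockout from wild type was 0.08 to 0.50, with the values of 1434100_x_at and 1437751_at turning to -0.07 and -0.03 when arrays were centred on their medians. The highest, 0.50, was that of 1434099_at, which like 1460336_at was above background in knockout only. In fat rescue the difference was -0.27 for 1437751_at and 0.16 to 0.47 for the others, so that the probe sets differed in sign.

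The 4 probe sets of Prdm16 disagreed as well. The probe set 1429308_at read 44.4, 44.3, 39.1 and 27.6 on the wild-type arrays, 69.3, 70.7, 54.1 and 59.2 on the knockout arrays, and 28.1, 62.0 and 72.2 on the fat rescue arrays. All knockout arrays were above all wild-type arrays, with a log2 difference of 0.72 ± 0.31 that did not pass (limma, unadjusted p = 0.0345, adjusted p = 0.750), and fat rescue overlapped both. This probe set was above background in knockout only. The probe set 1440870_at, above background on all arrays, differed by 0.04 ± 0.24 in knockout (-0.11 with median centring) and by -0.05 ± 0.26 in fat rescue. The probe set 1429309_at was above its limit on 3 of 4 knockout, 2 of 3 fat rescue and 0 of 4 wild-type arrays, thus on all arrays of no genotype, and 1440745_at was above it on 0 of 11 arrays.

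Dio2, read by 3 probe sets, was above background in no genotype. Its probe set 1418938_at read 11.3, 17.6, 13.5 and 1.2 on the wild-type arrays, 29.2, 28.7, 31.3 and 36.1 on the knockout arrays, and 12.5, 15.9 and 20.3 on the fat rescue arrays. The knockout arrays were above all others, yet only knockout array 4 exceeded its limit, and the other probe sets (0.5 to 29.5 over all arrays) showed no such separation. Dio2 did not pass in any comparison (limma, adjusted p = 0.706 for this probe set in knockout against wild type), and no fold is given for it.

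Ucp1, the defining gene of heat production, read 2.0, 1.8, 2.8 and 2.0 on the wild-type arrays, 12.3, 10.1, 11.9 and 2.8 on the knockout arrays, and 12.5, 3.4 and 3.8 on the fat rescue arrays. The fat rescue arrays lay above the wild-type arrays and the knockout arrays reached down to them, but no signal came near the lowest limit of 29.2. No fold is given for Ucp1, since all groups were below background. Elovl3 read 50.6, 11.8, 20 and 19.8 on the wild-type arrays, 21.0, 20.9, 21.2 and 2.6 on the knockout arrays, and 18.3, 9.0 and 22.3 on the fat rescue arrays, so that 1 of 11 arrays, wild-type array 1, exceeded its limit.

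**Figure D3:**
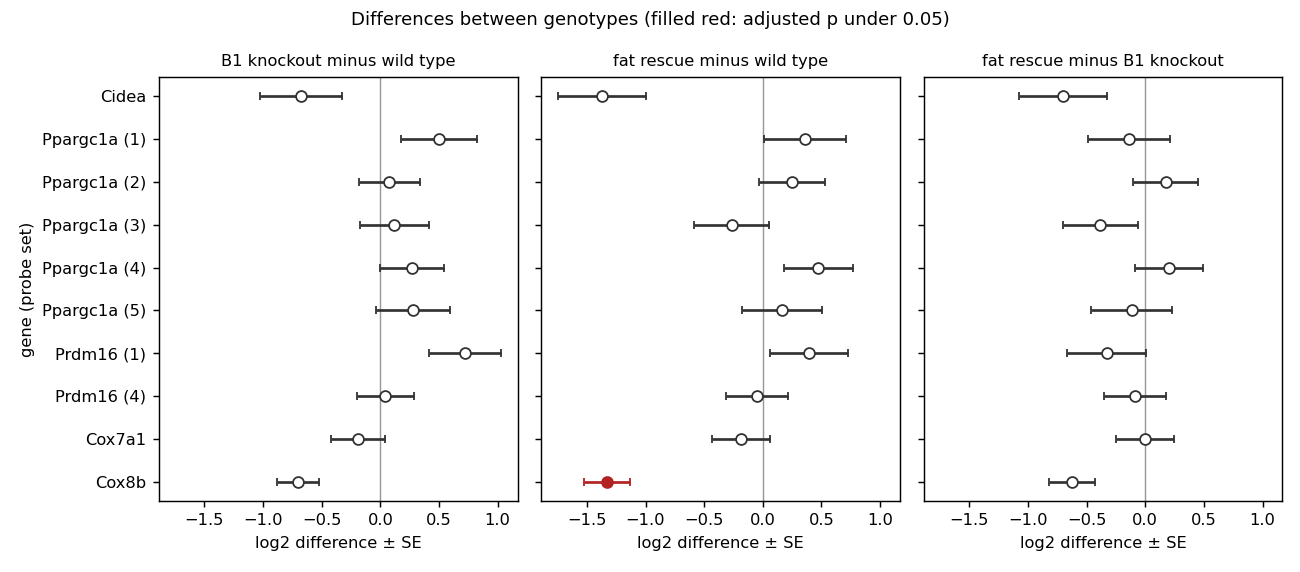
Log2 difference with its standard error for the 10 probe sets above background in at least 1 genotype, in a panel for each pair of genotypes, from the limma fit over all 11 arrays; probe sets of a gene are numbered in order of their identifiers. The filled red point, Cox8b in fat rescue against wild type at -1.33, is the only one that passed. Ppargc1a 1434099_at and 1460336_at and Prdm16 1429308_at were above background in knockout only.

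Over the 17 probe sets, 0 were called in knockout against wild type, where 8 of 45037 were called (0.0178%), and 0 in fat rescue against knockout, where 0 of 45037 were called (0.00%). At an unadjusted p under 0.05, limma gave 4 of the 17 in knockout (6.53% of all probe sets) and 2 in fat rescue (6.68%), each against wild type, and 1 between the mutant groups (4.13%). The 4 in knockout were Cox8b, Prdm16 1429308_at, Dio2 1418938_at and Ucp1. Dio2 and Ucp1 were above background in no genotype, and this Prdm16 probe set in knockout only. The 2 in fat rescue were Cox8b and Cidea. Groups did not overlap for 3 of the 17 in each pair of genotypes, beside 3.63% of all probe sets for knockout and 7.23% for fat rescue against wild type, and 5.24% for fat rescue against knockout. Against wild type the 3 were Cox8b (lower), Prdm16 and Dio2 (higher) in knockout, and Cox8b and Cidea (lower) and Ucp1 (higher) in fat rescue. Of these, Dio2 and Ucp1 were above background in no genotype, and the Prdm16 probe set, 1429308_at, in knockout only. In fat rescue against knockout the 3 were Cox8b and Dio2 1418938_at (lower) and Prdm16 1440745_at (higher). Of those, Dio2 1418938_at and Prdm16 1440745_at were above background in no genotype. Probe sets of 1 gene share a target, and these counts are not counts of genes.

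With the genotype means removed, no pair of these genes passed as varying together from array to array. Over the 6 pairs of Ppargc1a, Prdm16, Cox7a1 and Cox8b, the smallest adjusted permutation p was 0.852 for Pearson's r and 0.772 for Spearman's rho (11 arrays). For Cox8b and Cidea, a pair added after the data had been seen, Pearson's r was 0.59 (permutation p = 0.0583, adjusted over 10 pairs 0.497) and Spearman's rho 0.48 (permutation p = 0.140, adjusted 0.551), and r was 0.75 without the 2 arrays farthest from the Cox8b median. Leaving out the 2 farthest arrays also moved r among the 6 pairs, so that r was not stable. It went from -0.20 to -0.70 for Prdm16 and Cox7a1, and from -0.36 to 0.02 for Prdm16 and Cox8b. The genes whose signals over the 11 arrays were most like Cox8b among 12708 genes were Oxct1, which encodes an enzyme of ketone body use, with r = 0.94, then Rmdn3 and Cox7a2, each with r = 0.93. For Cidea they were Pex11a, a peroxisome gene, with r = 0.96, and Lpin1, a phosphatidate phosphatase gene of triglyceride synthesis, and Reep6, each with r = 0.95. These values describe likeness, include the differences between genotypes and share the arrays' scaling.

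The other genes of the pathway gave no call in any list. Of 27 measured genes of thermogenic signalling and transcription, 14 were lower and 13 higher in knockout, and 15 lower and 12 higher in fat rescue (median log2 differences -0.02 and -0.10). Cebpb, a transcription factor gene of adipogenesis and of the Prdm16 complex, read 1541 ± 305 in wild type, 1457 ± 141 in knockout and 1135 ± 64.4 in fat rescue. Its fat rescue arrays were below all others, with -0.42 ± 0.13 against wild type (limma, adjusted p = 0.639). Nrip1, a corepressor of oxidative genes, differed by -0.30 ± 0.12 in fat rescue, Pparg, the master regulator of adipocytes, by -0.22 ± 0.10 in knockout, and Foxc2 by -0.47 ± 0.21 in knockout.

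Of 19 measured further brown fat markers, 12 were lower in knockout and 16 in fat rescue (medians -0.06 and -0.20, beside 0.03 and 0.04 over all measured probe sets), and none passed. Plin5, which encodes a protein that ties lipid droplets to mitochondria, read 157.6, 156.0, 211.9 and 217.2 on the wild-type arrays, 129.0, 128.7, 186.5 and 167.8 on the knockout arrays, and 107.9, 130.7 and 94.2 on the fat rescue arrays. Its fat rescue arrays lay below all wild-type arrays (-0.74 ± 0.19, limma, adjusted p = 0.507). Nrg4, a secreted factor of brown fat, had means of 1121, 816 and 766 (-0.47 ± 0.15 and -0.54 ± 0.17, limma, adjusted p = 0.706 and 0.639). Kcnk3, a potassium channel gene, differed by -0.55 ± 0.22 in knockout and -0.21 ± 0.24 in fat rescue, and Mpzl2, an adhesion protein gene, by 0.75 ± 0.26 and 0.03 ± 0.28. Of the 24 on the array, 5 had no mean above background, and they were named after their values were seen: Zic1, Lhx8, Otop1 and Fgf16 exceeded the limit on 0 of 11 arrays and S100b on 2.

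Beige markers had 9 measured genes, of which 8 were lower in knockout and 8 in fat rescue (medians -0.23 and -0.35), with 0 called. Over all measured probe sets 42.7% and 41.8% were lower (medians 0.03 and 0.04). Lower values were not particular to beige markers, since 16 and 15 of 17 white adipocyte markers were lower as well (medians -0.13 and -0.11). Mtus1 read 1234.1, 898.8, 1045.3 and 865.3 on the wild-type arrays, 716.4, 677.5, 761.9 and 798.9 on the knockout arrays, and 687.9, 862.6 and 682.4 on the fat rescue arrays. All arrays of both mutant groups were below all wild-type arrays, with -0.44 ± 0.12 and -0.44 ± 0.13 (limma, adjusted p = 0.525 and 0.591). Slc36a2, an amino acid transporter gene of adipocytes, differed by -0.23 ± 0.22 in knockout and -0.60 ± 0.24 in fat rescue, and P2rx5, a purine receptor gene, by -0.85 ± 0.41 and -0.47 ± 0.44. Of the 13 beige markers on the array, 4 had no mean above background: Tmem26, Cited1 and Shox2 exceeded the limit on 0 arrays and Tnfrsf9 on 2. Tbx1 and Hoxc9 exceeded it on 9 and 10 of 11 arrays. These 6 genes were named after their values were seen. Of 10 measured genes of heat production without Ucp1, such as creatine and calcium cycling, 5 were lower in knockout and 7 in fat rescue; Ckb differed by 0.44 ± 0.19 in knockout and Dgat1, which makes triglyceride, by -0.44 ± 0.16 in fat rescue.

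Relatives of the 8 genes in the same protein families gave 12 measured genes, of which 6 were lower in knockout and 7 in fat rescue, with 0 called. Ucp3, an uncoupling protein gene of muscle and brown fat, read 186 ± 49.1 in wild type, 137 ± 31.5 in knockout and 149 ± 14.4 in fat rescue (-0.44 ± 0.20 and -0.30 ± 0.22). Prdm2 differed by 0.43 ± 0.16 and 0.33 ± 0.17.

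**Figure D4:**
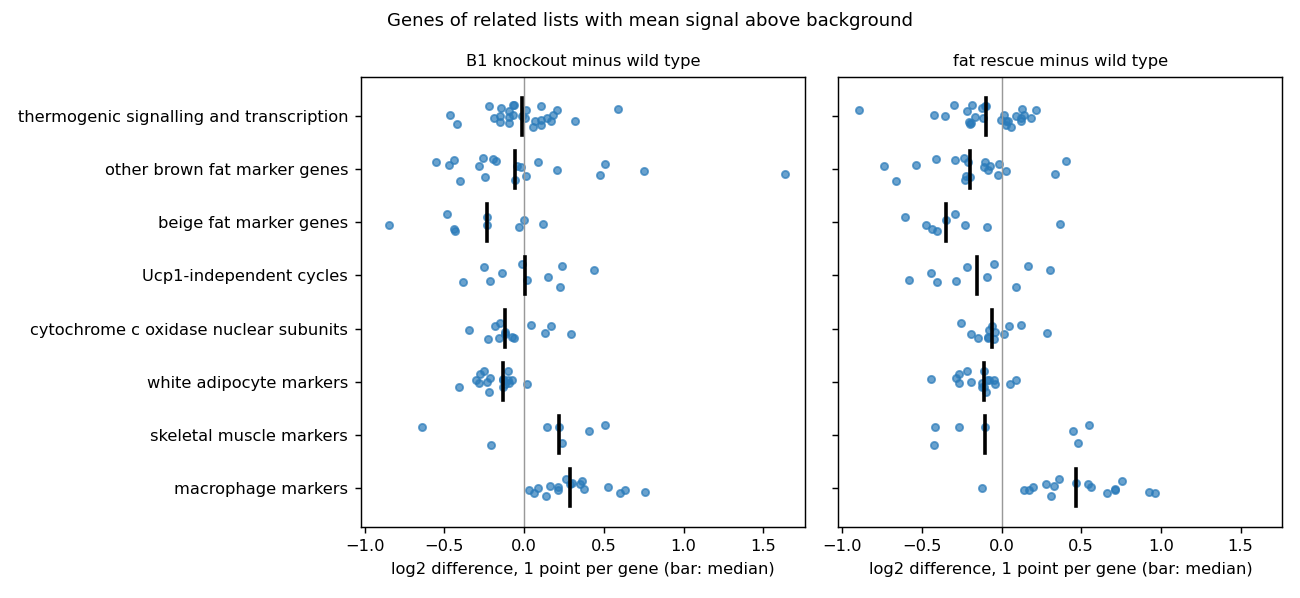
Log2 difference from wild type of each measured gene (points) and list medians for the lists of related genes, in knockout and in fat rescue. The beige markers have medians of -0.23 and -0.35 and the white adipocyte markers -0.13 and -0.11, and no gene of any list passed.

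Markers of other cell types were examined in the same arrays, and 0 of them passed in any comparison. In bulk tissue, fewer cells of a type and less RNA per cell cannot be told apart. The summed signal of 17 macrophage markers was 15688 to 22763 in wild type, 17686 to 36302 in knockout and 23481 to 28521 in fat rescue. All fat rescue arrays were thus above all wild-type arrays, while the knockout arrays overlapped both groups. Against wild type, 17 of the 17 were higher in knockout (median 0.29) and 16 in fat rescue (median 0.47). In fat rescue against knockout, 13 were higher and 4 lower. All of these markers were above background on every array. The sum of 10 mesothelial markers was 2987 to 5070, 4413 to 6078 and 5520 to 6000. Here too all fat rescue arrays were above all wild-type arrays, and the knockout arrays overlapped both groups. Against wild type, 9 of the 10 were higher and 1 lower in knockout (median 0.15), and likewise in fat rescue (median 0.37). All 17 white adipocyte markers, such as Adipoq and Fabp4, were above background on every array, as the labelled tissue has them. Their summed signals overlapped between the groups (170011 to 219964, 152849 to 204883 and 167571 to 195032), although 16 of 17 were lower in knockout and 15 in fat rescue (medians -0.13 and -0.11). Sums of 16 endothelial, 10 smooth muscle and pericyte, and 8 lymphocyte markers overlapped between all genotypes. The part of these cell types in the Cox8b and Cidea differences was not tested.

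Because Cox8b and Cox7a1 are also muscle genes, skeletal muscle markers were examined beside them. Their summed signal over 23 genes was 1476 to 2138 in wild type, 1436 to 2826 in knockout and 1317 to 1858 in fat rescue, overlapping throughout; 4 of the 23 were above background on all arrays and 4 on none. Array 1 had the highest sum of its genotype in each case, 2138, 2826 and 1858. A large part of these sums came from Myl1 (1063.2, 1007.3 and 866.2) and Acta1 (491.1, 482.6 and 341.2). Other markers were named after their values were seen. Myh1 was highest on array 1 in each genotype (45.2, 162.3 and 12.0). Tnnt3 and Tnni2 were so in wild type (23.1 and 27.5) and knockout (38.7 and 44.7). Myh1, Tnnt3 and Tnni2 exceeded the limit on 2, 1 and 1 of 11 arrays. Ckm and Mylpf were highest on array 1 in knockout only (71.6 and 94.1). Casq1 was highest on wild-type array 2 (50.2), knockout array 4 (60.6) and fat rescue array 3 (47.4). The pattern of array 1 was thus shared by some muscle markers and not by all. The Cox8b signal of array 1 was the highest of the wild-type arrays (379.9) and of the fat rescue arrays (125.0), and lay within the range of the other knockout arrays (172.8). The part of muscle tissue in the Cox8b differences was not tested. Myl1, a muscle myosin light chain gene, differed by -0.42 ± 0.19 in fat rescue against wild type (limma, adjusted p = 0.742), and Eno3, muscle enolase, by 0.48 ± 0.15 (limma, adjusted p = 0.639). Of 12 epididymis markers, 10 were above background on no array.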

How the data were processed

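Total RNA of 11 epididymal fat samples was hybridized to one-colour Affymetrix arrays. The deposited values are the authors' signal intensity per probe set on a linear scale, made with GCOS 1.3 and MAS5 per the submitters' processing notes. In every array the mean without the lowest and highest 2% was 200. The genome build and detection calls are not given in the sources used here. Genes came from the platform annotation: 34945 probe sets had 1 symbol, 932 several and 9160 none, and 64 of 45101 were controls.

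A single 0 was set to 0.1 and log2 was taken. All 45037 probe sets and 11 arrays were fitted with limma 3.58.1 (eBayes with trend, genotype as the only factor; R 4.3.3, statmod 1.5.0), with two-sided Benjamini-Hochberg adjusted p under 0.05 over all probe sets. Exact permutation tests compared mean log2 signals. "Measured" means a mean log2 signal above the mean background limit of 33.5 (24338 probe sets). A gene of a list was read by its brightest probe set. Named from each list were up to 4 genes with the smallest unadjusted p and the 3 brightest of cell type lists; not all are named.

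Members and lists were chosen with earlier results of these data known. The labels number the replicates and do not state a pairing. With the genotype means removed, correlations of same-numbered arrays were -0.09 to 0.22. Arrays of different numbers were not set beside them, so these values cannot show whether the numbers pair the samples. The labels call the arrays biological replicates and name no animals, so that p-values measure the spread between these samples. The labels give no batch. The steps were tested on simulated data. Alternatives were quantile normalization, median centring, log2(value + 50), log2(value + 16), the upper 60% and 40% of probe sets, the brightest probe set per gene, eBayes without trend, robust eBayes, array weights, only the groups compared, a replicate block, and each array left out; leaving out wild-type array 1 and fat rescue array 1 together was added after seeing the data.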

Additional observations from a re-analysis of the deposited data

Results flagged for a closer look

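Each of 34 sets of 4 arrays (17 probe sets in wild type and in knockout) was examined for an array far from the others, and 3 had one; chance gives about 1 in 20. Ucp1 on knockout array 4 was the lowest of its group, at 2.8 beside 10.1 to 12.3. Elovl3 was lowest on the same array, at 2.6 beside 20.9 to 21.2. Dio2 (1418938_at) was lowest on wild-type array 4, at 1.2 beside 11.3 to 17.6. All of these signals were below their background limits, so that no level is read from them.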

How the results depend on the processing

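The Cox8b and Cidea differences kept their direction in every alternative run. Cox8b in fat rescue against wild type lay between -1.45 and -1.04 and was called in 5 of 23 (limma, adjusted p 0.0291 to 0.298): median centring, the upper 40%, robust eBayes, the replicate block (0.0318) and without knockout array 4. With both mutant groups together it was called in 7 of 22 (adjusted p 0.0219 to 0.332). Cidea in fat rescue lay between -1.63 and -0.69 and was called in 0 of 22.

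Median centring moved the median of all probe sets from 0.05 to -0.10 in knockout and to -0.05 in fat rescue against wild type. Of the called probe sets 3 of 8 were lower in knockout, 3 of 7 in fat rescue and 9 of 18 in both mutant groups together; with median centring these were 10 of 14, 6 of 10 and 22 of 28, and with quantile normalization 1 of 6 in fat rescue.

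The 8 calls in knockout against wild type became 14 with median centring, 5 with the brightest probe set per gene and 19 without wild-type array 1 and fat rescue array 1, and 4 to 16 without each array. The 7 calls in fat rescue against wild type became 2 with the brightest probe set, 4 without trend, 3 with only the groups compared and 4 without those 2 arrays, and 2 to 7 without each array. Between the mutant groups 0 became 1 without trend. For both mutant groups together 18 became 28 with median centring, 9 with the brightest probe set and 6 without trend, and 6 to 25 without each array. With the replicate block, whose numbers are not known to pair the samples, the calls were 3 in fat rescue and 10 in both groups together, and Cox8b was still 1 called probe set in each. The count of called member probe sets, 1 in fat rescue, became 0 with quantile normalization, either added constant, the upper 60%, the brightest probe set, no trend, array weights, only the groups compared and without those 2 arrays, and 0 to 1 without each array. For both mutant groups together it became 0 with either added constant, the upper 60%, no trend, array weights and without those 2 arrays, and 0 to 1 without each array.

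Changes of sign touched uncalled values only. In knockout against wild type these were Ppargc1a 1434100_x_at (-0.054 with quantile normalization, -0.072 with median centring, -0.097 without those 2 arrays) and 1437751_at (-0.032 with median centring), and Prdm16 1440870_at (-0.076 and -0.11 with quantile normalization and median centring). The replicate block turned Prdm16 1440870_at to 0.079 in fat rescue against wild type and 0.036 against knockout, and Cox7a1 to -0.023 between the mutant groups, where it was also -0.0021 and -0.0012 with 50 and 16 added and -0.023 with array weights. Without those 2 arrays Ppargc1a 1460336_at was -0.16 in fat rescue against wild type and Prdm16 1429308_at 0.088 against knockout. Without each array, values that changed sign ranged as follows. In knockout against wild type they were -0.10 to 0.27 (Ppargc1a 1434100_x_at), -0.038 to 0.37 (1437751_at) and -0.10 to 0.30 (Prdm16 1440870_at). In fat rescue against wild type they were -0.61 to 0.011 (Ppargc1a 1437751_at), -0.13 to 0.53 (1460336_at) and -0.10 to 0.061 (Prdm16 1440870_at). Between the mutant groups they were -0.32 to 0.054 (Ppargc1a 1434099_at), -0.41 to 0.25 (1460336_at), -0.59 to 0.088 (Prdm16 1429308_at), -0.34 to 0.055 (1440870_at) and -0.066 to 0.093 (Cox7a1). The causes of these changes were not tested. Signal over background limits the readings of Ucp1, Dio2 and Elovl3.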
